A study of Mus musculus with 8 samples.

Results

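The shallow control cells were the barcodes of the untreated library that held from 500 up to, but not including, 5000 unique molecular identifiers (UMIs, each standing for 1 captured transcript), of which no more than 0.2 fell on genes of the mitochondrial genome. They were selected on total UMIs and on mitochondrial share, both measured in the same counts, and 1113 of the 3838 barcodes in the control table met the rule (29.0%, exact binomial 95% interval 27.6 to 30.5%, counting error only). The reference was the 2646 deep control barcodes that held 5000 UMIs or more and no more than 0.1 on mitochondrial genes. The cells were mouse embryonic stem (ES) cells of the line E14, which the labels describe as derived from the inner cell mass, kept for 2 days in LIF/2i medium on gelatin with a layer of mouse embryonic fibroblast (MEF) feeder cells. The control cells were untreated, and the other library came from ES cells given CX-5461, an inhibitor of RNA polymerase I. Both were made with the droplet chemistry of 10x Genomics, which counts the 3′ ends of polyadenylated RNA. The labels list 4 samples per condition, but each condition was deposited as 1 table in which barcodes are numbered and not tied to a sample, so that each condition was treated as 1 library. Hence no test between groups of cells was possible, the intervals given here are 95% intervals for counting error only, and members are cells of 1 library, not replicates. Since barcodes are given as numbers, barcodes shared between the libraries could not be counted.

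The 1113 members held 2766129 UMIs, with a median of 2272 per barcode (range 509 to 4975), and the deep barcodes held 46660525, with a median of 15936.5 per barcode. The median mitochondrial share was 12.1% in the members and 1.92% in the deep barcodes. At the limits of the rule, the 3 members with the most UMIs held 4940, 4972 and 4975, and the next barcodes outside held 5010, 5039 and 5041. The highest mitochondrial shares among members were 19.8, 19.8 and 19.9%, and the lowest of the 62 barcodes left out by that limit were 20.1, 20.1 and 20.2%. Only 8 barcodes lay under 500 UMIs, and 8 with 5000 or more UMIs lay between 0.1 and 0.2 mitochondrial, in neither set.

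**Figure D1:**
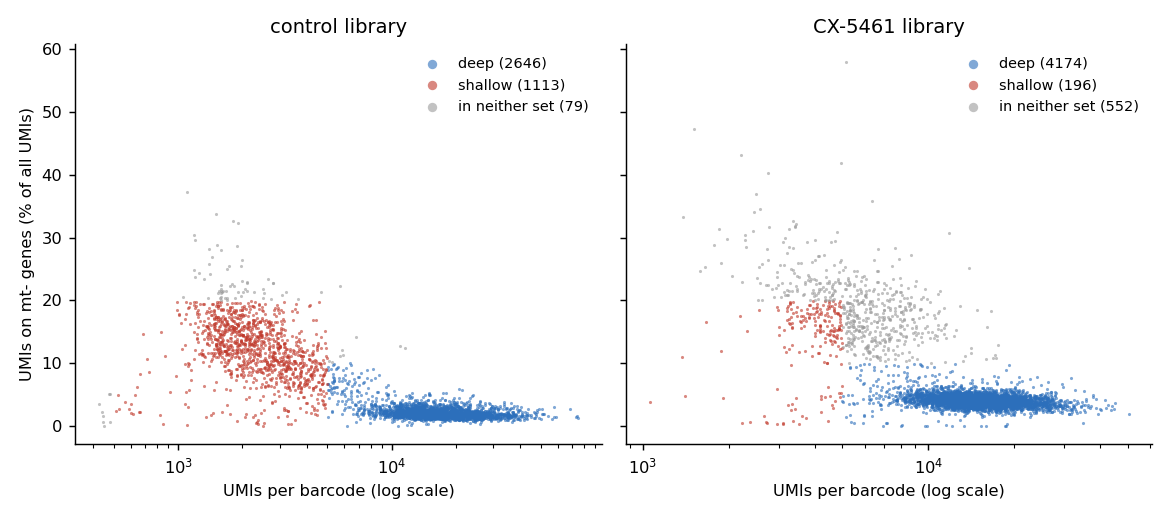
Total UMIs per barcode (log scale) against the percentage of UMIs on mitochondrial genes, 1 point per barcode, in the control library (left) and the CX-5461 library (right); red marks shallow, blue deep and grey the barcodes in neither set, with their numbers. In the control library most of the 1113 shallow barcodes lie at higher mitochondrial shares than the 2646 deep ones, with barcodes on both sides of 5000 UMIs. In the CX-5461 library 327 barcodes of 5000 or more UMIs lie between 10 and 20% mitochondrial.

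Messenger RNAs differ in where they are held in a cell. Those for secreted and membrane proteins carry a hydrophobic stretch near the start or within the protein, are recognised as the stretch emerges from the ribosome, and are translated on the surface of the endoplasmic reticulum (ER). Some noncoding RNAs stay in the nucleus, mitochondrial transcripts stay inside the organelle, and most other mRNAs are translated on free ribosomes in the cytosol. In droplet experiments, barcodes with few UMIs and a high mitochondrial share are commonly read as damaged cells and are often left out. Levels below are UMIs pooled over all barcodes of a set, per 1000000 non-mitochondrial UMIs of that set (UPM), and the ratio is the level in shallow over that in deep barcodes. A gene was compared where both sets together held at least 1000 UMIs, and called higher or lower where the ratio passed 1.5-fold. The deep set held 45710373 non-mitochondrial UMIs and the members 2452969. The minimum was thus reached mostly through deep barcodes, and genes high in the members passed it less easily than genes high in deep barcodes.

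Coding sequences of mouse GENCODE transcripts (GRCm38) are shown for 6 genes, because the ratio went with hydrophobic stretches in the protein. The first 4 belong to genes with a high ratio, and capitals mark the bases of a 19-residue stretch with a mean Kyte-Doolittle hydropathy of at least 1.6. Among the 19 windows starting from the first that passed, the one with the highest mean is marked. The last 2 belong to genes with a low ratio whose proteins hold no stretch of at least 1.6, and show the first 90 coding bases.
Hspa5, ER chaperone, chr2:34771970-34777547, plus strand, residues 1 to 19 of 655: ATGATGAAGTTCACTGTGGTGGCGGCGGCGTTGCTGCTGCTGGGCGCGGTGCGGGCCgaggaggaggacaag
Ctsl, lysosomal protease, chr13:64359337-64370890, minus strand, residues 3 to 21 of 334: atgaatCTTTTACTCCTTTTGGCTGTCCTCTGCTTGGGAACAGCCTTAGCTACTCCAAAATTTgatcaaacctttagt
Sec62, ER translocation protein, chr3:30792875-30821263, plus strand, residues 197 to 215 of 398: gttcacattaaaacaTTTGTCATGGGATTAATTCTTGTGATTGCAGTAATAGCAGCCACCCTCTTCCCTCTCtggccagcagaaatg
Cd9, tetraspanin of the cell surface, chr6:125460266-125494791, minus strand, residues 13 to 31 of 226: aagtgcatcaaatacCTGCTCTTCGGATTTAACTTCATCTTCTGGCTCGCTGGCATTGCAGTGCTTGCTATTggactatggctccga
Pfn1, actin-binding protein, chr11:70651850-70654644, minus strand, 140 residues: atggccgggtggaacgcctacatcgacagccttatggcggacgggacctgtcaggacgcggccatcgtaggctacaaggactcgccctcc
Rpl32, ribosomal protein, chr6:115805505-115808747, minus strand, 135 residues: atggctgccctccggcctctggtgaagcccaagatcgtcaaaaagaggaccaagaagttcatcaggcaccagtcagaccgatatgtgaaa

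The totals per barcode follow from the rule and are given as a description. A member held on average 2204 non-mitochondrial UMIs, 12.8% of the 17275 in a deep barcode, but 281 mitochondrial UMIs, 78.4% of the 359 in a deep barcode. A gene whose ratio was 1 therefore kept 12.8% of its UMIs per barcode. Of 4084 non-mitochondrial genes compared, 850 were called higher (20.8%) and 716 lower (17.5%), and the median log2 ratio was 0.00. The balance depends on scaling. With all UMIs as the denominator 664 were higher and 982 lower, and with the trimmed mean factor of edgeR between the pooled sums 585 were higher and 1144 lower, with the median moved to -0.14 and -0.21, respectively.

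**Figure D2:**
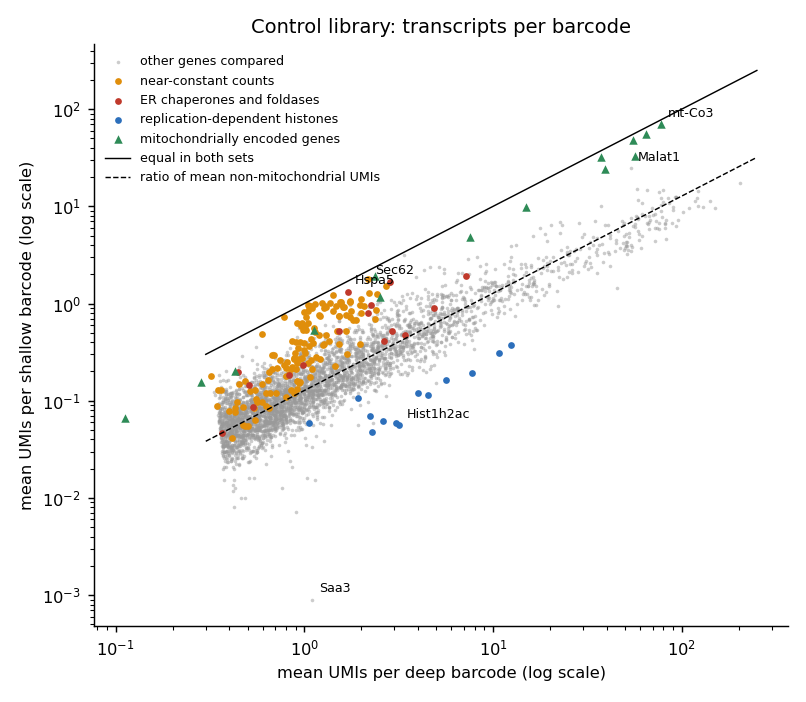
Mean UMIs per shallow barcode against mean UMIs per deep barcode in the control library, both on log scales, 1 point per gene; the solid line marks equal numbers and the dashed line the 12.8% of non-mitochondrial UMIs kept overall. Mitochondrially encoded genes (green) and genes of near-constant counts (orange) approach the solid line, ER chaperones and foldases (red) lie mostly above the dashed line, and histone genes (blue) lie below it.

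Mitochondrial genes are given as a description, since the rule used them. mt-Co3, a subunit of cytochrome oxidase, was at 31756 UPM in shallow and 4499 in deep barcodes, a ratio of 7.06 (7.0 to 7.12), and held 70.0 and 77.7 UMIs per barcode. mt-Nd3, a subunit of complex I and 1 of the 3 genes given as markers of these cells, was at 872 and 137, a ratio of 6.36 (6.05 to 6.68). The ratios were not the same for all mitochondrial transcripts. mt-Atp6, mt-Nd1 and mt-Cytb lay at 6.78, 6.75 and 6.76, but mt-Co1 and mt-Co2 at 4.59 and 4.89, and the ribosomal RNAs mt-Rnr1 and mt-Rnr2 at 3.68 and 3.64. Hence mt-Co1 made up 11.7% of mitochondrial UMIs in shallow and 15.6% in deep barcodes, and mt-Co3 24.9% and 21.6%. The ribosomal RNAs had few UMIs in the members, 1294 for mt-Rnr2.

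Transcripts of the ER folding machinery were higher as a group. Of 24 ER chaperones and foldases, 16 were compared, 10 were higher and 0 lower, against 20.8% and 17.5% of all genes, and the median log2 ratio was 0.97. Their summed share of non-mitochondrial UMIs was 0.49% in shallow and 0.21% in deep barcodes. Hspa5, the main Hsp70 chaperone of the ER lumen, was at 603 UPM in shallow and 98.5 in deep barcodes, a ratio of 6.12 (5.77 to 6.49). A member thus held 1.33 Hspa5 UMIs and a deep barcode 1.70, so that 78.1% of them were kept. Hsp90b1, the Hsp90 chaperone of the ER, followed at 748 and 164 UPM (ratio 4.55, 4.32 to 4.79). The lectin chaperone Calr was at 864 and 413 (2.09, 2.00 to 2.19), whereas Ppib, a prolyl isomerase of the ER, was at 412 and 282 and stayed under the fold (1.46, 1.37 to 1.56). The protein disulfide isomerases Pdia4 and Pdia6 lay at 3.50 and 3.33.

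The machinery for protein entry into the ER was listed together with other ER-membrane machinery, and this list was more mixed. Of 47 listed genes 39 were compared, 19 were higher and 2 lower (Vapa and Srp9), against 20.8% and 17.5% of all genes. The median log2 ratio was 0.47. Sec62, which helps post-translational entry into the ER and is another marker of the rule, was at 770 UPM in shallow and 125 in deep barcodes, a ratio of 6.14 (5.83 to 6.47), with 1.70 and 2.17 UMIs per barcode. Ktn1, the kinesin-binding ER membrane protein kinectin and the remaining marker of the rule, was at 254 and 54.1 (4.70, 4.29 to 5.13). The small translocon subunits moved far less. Sec61g was at 1284 and 1061 UPM (1.21, 1.17 to 1.26) and Sec61b at 626 and 714 (0.877, 0.833 to 0.923). The large subunits of oligosaccharyl transferase were among the higher genes, with log2 ratios of 1.59 for Rpn2, 1.27 for Rpn1 and 1.63 for Stt3a.

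Receptors and adhesion proteins of the cell surface were likewise higher, with 12 of the 16 compared higher and 0 lower. The median log2 ratio was 0.90, and the reference for list counts is the 20.8% higher and 17.5% lower of all genes. Cd9 was at 1024 UPM in shallow and 319 in deep barcodes (3.21, 3.08 to 3.35). The transferrin receptor Tfrc was at 99.9 and 26.1 (3.82, 3.32 to 4.39), the glucose transporter Slc2a1 at 96.2 and 39.5 (2.43, 2.12 to 2.79), and the lysosomal tetraspanin Cd63 at 575 and 307 (1.88, 1.77 to 1.98). Among coding genes picked out after their values were seen, the highest ratios included Atp6ap2, an accessory membrane protein of the vacuolar ATPase (4.81), Ctsl (4.38), the cationic amino acid transporter Slc7a3 (4.11) and the secreted lipoprotein Apoe (4.03). Slc3a2, the heavy chain of amino acid transporters, listed among the integrated stress response genes, was at 405 and 135 (2.99, 2.79 to 3.20), whereas that list as a whole had 1 higher and 1 lower gene among 8 compared.

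Some nuclear RNAs were kept as well. Malat1, a noncoding RNA of nuclear speckles, showed the largest gain in level of any gene compared, with 11132 UPM in shallow and 3106 in deep barcodes (3.58, 3.54 to 3.63) and 24.5 and 53.7 UMIs per barcode. Kcnq1ot1, the imprinted antisense RNA, was at 204 and 74.0 (2.76, 2.51 to 3.03) and Meg3 at 526 and 317 (1.66, 1.57 to 1.76). Neat1, the RNA of paraspeckles, went the other way at 27.7 and 57.3 (0.484, 0.375 to 0.615). However, 72.3% of the Neat1 UMIs of deep barcodes came from barcodes rich in fibroblast markers, and without those barcodes its ratio was 1.51 (1.15 to 1.96). Of only 5 nuclear-retained noncoding RNAs compared, 3 were higher and 1 lower, against 20.8% and 17.5% of all genes. Several long mRNAs for nuclear proteins, picked after their values were seen, had similar ratios: Son, a large splicing cofactor, was at 996 and 249 (4.01, 3.84 to 4.19), Pdcd11, a ribosome biogenesis factor, at 206 and 53 (3.89, 3.53 to 4.28), and the DNA topoisomerase Top1 at 452 and 140 (3.22, 3.02 to 3.44). Long coiled-coil and motor proteins showed 10 higher and 0 lower among 15 compared, with a median log2 ratio of 0.88. This list contains Ktn1. Tpr, of the nuclear basket, was at 300 and 163 UPM (1.84, 1.71 to 1.99), and Akap9, a Golgi and centrosome scaffold, at 49.3 and 21.5 (2.3, 1.89 to 2.78).

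Nuclear-encoded proteins of the respiratory chain, which are made in the cytosol and imported into mitochondria, showed 26 higher and 4 lower among 79 compared. Of all genes 20.8% were higher and 17.5% lower, and the median log2 ratio of this list was 0.32. The cytochrome oxidase subunits Cox4i1 (2736 and 1028 UPM, ratio 2.66, 2.59 to 2.73) and Cox6a1 (1357 and 473, ratio 2.87, 2.76 to 2.97) were higher, and Cox8a was at 2433 and 1317 (1.85, 1.8 to 1.9). Atp5g1, a subunit of the ATP synthase ring, was at 1165 and 1513 (0.770, 0.742 to 0.80). Mitochondrial ribosomal proteins, also imported, did not share this pattern, with 5 higher and 13 lower among 75 and a median log2 ratio of -0.24. Their share of lower genes was near the 17.5% over all genes. Mrpl12 was at 100 and 234 (0.429, 0.377 to 0.487).

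The cytosolic ribosomal protein mRNAs, the most abundant group, lost more than the average. They took up 24.2% of non-mitochondrial UMIs in shallow and 29.7% in deep barcodes. Of 79 compared 24 were lower and 3 higher, against 17.5% and 20.8% of all genes, with a median log2 ratio of -0.36. Rpl32 showed the largest loss in level of all genes, from 8734 UPM in deep to 4359 in shallow barcodes (0.499, 0.490 to 0.509). Rps12 was at 2112 in shallow and 4769 in deep barcodes (0.443, 0.431 to 0.455), and Rplp1 at 4429 and 7529 (0.588, 0.577 to 0.600). Rpl41 was at 7967 and 11743 (0.678, 0.669 to 0.688), just short of the fold. Rpl5 lay opposite to its group, at 483 in shallow and 142 in deep barcodes (3.40, 3.19 to 3.62). It held exactly 1 UMI in 81.4% of shallow and 34.0% of deep barcodes. The 3 higher genes were Rpl5, Rpl30 and Rpl18, and ribosomal protein genes share near-identical pseudogene copies, so that single members are uncertain.

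Of 22 cytoskeleton genes, 8 were lower, 14 within the fold and 0 higher, with a median log2 ratio of -0.48. Over all genes compared 20.8% were higher and 17.5% lower, the reference for this list and those that follow it here. Pfn1, profilin, was at 432 UPM in shallow and 1279 in deep barcodes (0.337, 0.317 to 0.359), Myl12b, a myosin light chain, at 44.4 and 125 (0.354, 0.290 to 0.428), and Tmsb10, a thymosin, at 1583 and 2577 (0.614, 0.595 to 0.634). Glycolysis enzymes had 3 higher and 2 lower among 12, but the most abundant, Gapdh, was at 1692 and 3524 (0.480, 0.465 to 0.495), and Ldha was at 207 and 352 (0.588, 0.537 to 0.642), while Pfkp was at 43.6 and 23.6 (1.84, 1.5 to 2.25). Among 35 translation factors 5 were higher and 7 lower, Eef1a1 being at 3048 and 4705 (0.648, 0.633 to 0.663) and Eif2s2 at 3166 and 1316 (2.41, 2.35 to 2.46). The cytosolic Hsp90 genes were higher, Hsp90aa1 at 6859 and 3350 (2.05, 2.02 to 2.08) and Hsp90ab1 at 6681 and 3778 (1.77, 1.74 to 1.8), although the heat shock and immediate early list had only 2 higher and 2 lower among 16.

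Replication-dependent histone genes, whose mRNAs end in a stem-loop without a poly(A) tail, showed the lowest ratios of any list. Of 70 listed genes only 13 reached the minimum, mostly through deep barcodes. All 13 were lower, against 17.5% of all genes, with a median log2 ratio of -2.16. The 70 listed genes summed to 0.10% of non-mitochondrial UMIs in shallow and 0.39% in deep barcodes. Hist1h2ac was at 25.7 UPM in shallow and 184 in deep barcodes (0.139, 0.107 to 0.178), and Hist1h2ab at 170 and 722 (0.236, 0.214 to 0.260). A member held 0.376 Hist1h2ab UMIs and a deep barcode 12.5, which is 3.01% kept. Most of the 13 compared were Hist1h2a genes, near-identical copies of the H2A family in clusters on chromosome 13, and not independent of each other. The authors' table records counts shared between genes for most of them, so single members are uncertain. Genes of the cell cycle did not move as one with the histones. The 26 DNA replication genes compared had 4 higher and 3 lower (median log2 ratio 0.21), and the 24 genes of G2/M and mitosis had 6 higher and 4 lower (0.28).

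**Figure D3:**
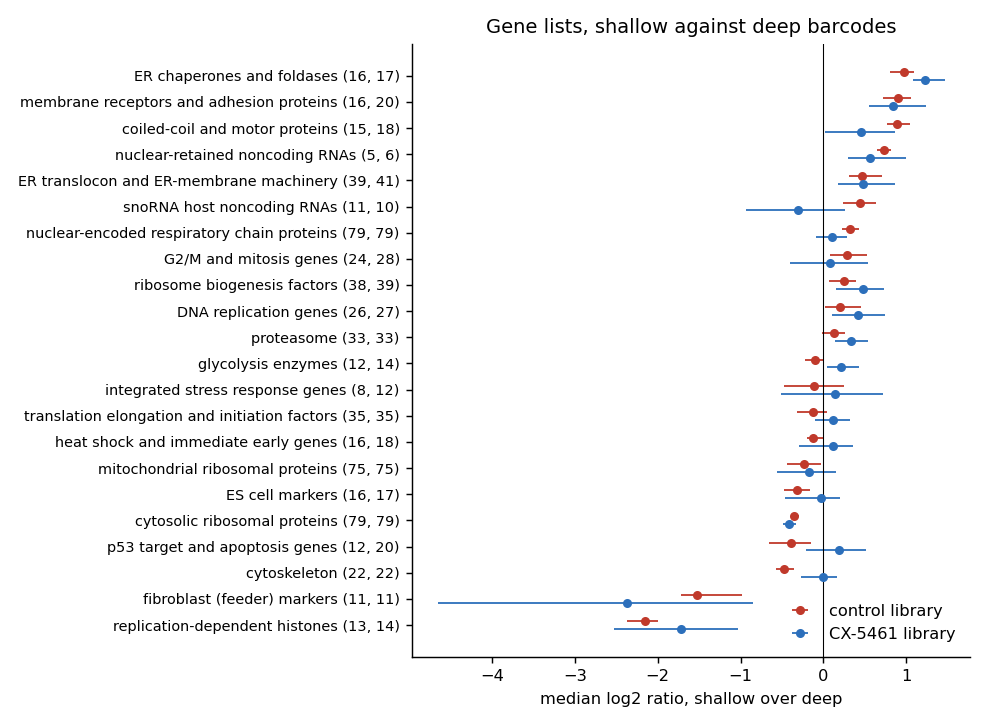
Median log2 ratio of shallow over deep barcodes for the gene lists with at least 5 genes compared, in the control library (red) and the CX-5461 library (blue); the bars run between the medians of the genes' lower and upper 95% counting limits, and the numbers beside each name are the genes compared in control and in CX-5461. ER chaperones and membrane receptors lie at the upper end and histones and fibroblast markers at the lower end in both libraries.

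Feeder-like barcodes differed in share between the sets. Barcodes with at least 1% of non-mitochondrial UMIs on 19 fibroblast markers made up 21 of the 1113 members (1.89%) and 180 of the 2646 deep barcodes (6.80%). Of 11 fibroblast markers compared, 8 were lower and 0 higher (median log2 ratio -1.52). The 12 lowest ratios included Saa3, an acute-phase protein (1 UMI in shallow and 2911 in deep barcodes, ratio 0.0064, 0.000162 to 0.0357), the chemokines Ccl7 (0.0622) and Ccl2 (0.105), the imprinted RNA H19 (0.123), the matrix protein Fbln2 (0.151) and the hyaluronan receptor Cd44 (0.130), of which 65.5 to 96.0% of the deep UMIs came from those 180 barcodes. Without the feeder-like barcodes of both sets, 3 fibroblast markers reached 1000 UMIs, 1 of them was higher and 0 lower. Of the 12 lowest-ratio genes 10 were still past the fold. Those on few UMIs included Saa3 (0.0173, 0.000438 to 0.0967), H19 (0.158, 0.0325 to 0.466) and Ccl2 (0.322, 0.0658 to 0.959). The intervals of Ccl7 (0.461, 0.124 to 1.20), Cd44 (0.538, 0.109 to 1.62) and Fbln2 (0 UMIs in shallow barcodes, upper limit 1.49) included 1, so that these are undetermined. The 12 also held histone genes, little of whose deep UMIs came from feeder-like barcodes. Hist1h2ac stayed at 0.135 (0.104 to 0.173) and Hist1h2ai at 0.144 (0.111 to 0.183). Gadd45g, a stress-response gene, went from 0.168 to 1.45 (0.454 to 3.58), and the ferritin light chain Ftl1 from 0.251 to 0.633 (0.582 to 0.686). Without them 12 of 12 histone genes compared were lower. The cytoskeleton group then had 7 of 22 lower and the ER chaperones 11 of 15 higher. In all, 93 of the 716 lower genes and 52 of the 850 higher genes were no longer past the fold. Fewer cells of a type and less RNA per cell cannot be told apart in these pooled values.

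ES cell markers were present in the members. The 18 ES cell markers summed to 0.96% of non-mitochondrial UMIs in shallow and 0.79% in deep barcodes. However, 6 of the 16 compared were lower and 1 higher (median log2 ratio -0.32), against 17.5% and 20.8% of all genes. The sum follows Dppa5a, an RNA-binding protein of pluripotent cells, at 6632 and 4594 UPM (1.44, 1.42 to 1.47). The 6 lower genes included the transcription factors Pou5f1 at 573 and 878 (0.653, 0.618 to 0.688) and Klf4 at 59.5 and 98.9 (0.602, 0.507 to 0.709), while Tdgf1, a membrane-anchored co-receptor of Nodal signalling, was at 413 and 237 (1.74, 1.63 to 1.86). Only 4 of 1113 members held no UMI of any ES cell marker. Markers of other cell types were near 0. The 11 primitive endoderm markers had none that reached 1000 UMIs, with 6 at 0 in the members, and of 12 macrophage markers 9 were at 0 and only Laptm5 was compared (1.76, 1.45 to 2.11). Genes of the 2-cell-like state, of which 0 were compared, summed to 48.5 UPM in shallow and 5.69 in deep barcodes. The level in shallow barcodes rested on few of them, with 119 UMIs in 8 members, 95 of these in 1 barcode and 17 in another. Deep barcodes held 260 UMIs in 65 barcodes.

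The remaining lists differed in direction, and over all genes compared 20.8% were higher and 17.5% lower. Proteasome subunits had 3 higher and 1 lower among 33 (median log2 ratio 0.12), and p53 target and apoptosis genes had 0 higher and 4 lower among 12 (-0.39). In the latter Bax was at 328 and 607 (0.540, 0.503 to 0.579), and Cdkn1a at 130 and 251 (0.519, 0.463 to 0.580), the latter at 0.842 (0.746 to 0.948) without feeder-like barcodes. Ribosome biogenesis factors had 9 higher and 2 lower among 38 (0.25), a share of higher genes near that over all genes. Gnl3 was at 635 and 253 (2.51, 2.37 to 2.64), Nop56 at 543 and 228 (2.38, 2.25 to 2.52) and Npm1 at 1.11. Noncoding hosts of small nucleolar RNAs had 2 higher and 1 lower among 11 (0.44), likewise near the share of higher genes over all genes. Snhg12 was at 150 and 74.3 (2.02, 1.81 to 2.25).

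The feature shown in the printed sequences was then counted over all protein-coding genes. Of 3647 protein-coding genes compared and of free variation, 3636 had a coding sequence. The 2842 genes without a hydrophobic stretch had a median log2 ratio of -0.10, and 12.2% of them were higher and 20.4% lower. The median was 0.18 for the 425 genes with 1 stretch beyond the first 40 residues (28.5% higher), 0.40 for the 130 with a stretch in the first 40 residues only (36.9% higher) and 0.47 for the 239 with 2 or more beyond it (45.6% higher). Genes with any stretch were also compared with genes without one in 3 classes of protein length of like size. Among the shortest (up to 232 residues) the medians were 0.07 with any stretch and -0.34 without, among the middle class 0.23 and -0.20, and among the longest 0.57 and 0.23.

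**Figure D4:**
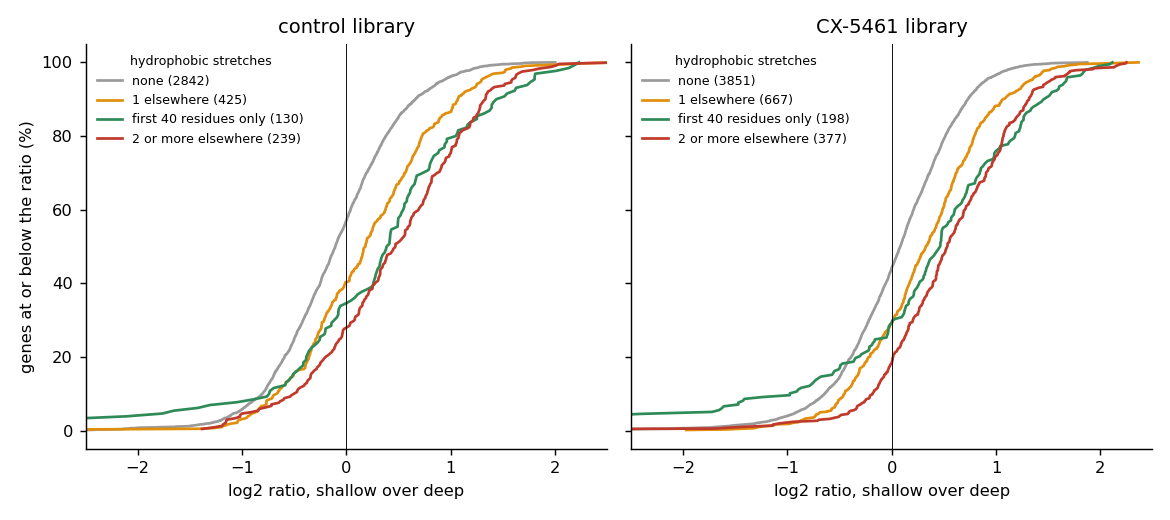
Cumulative percentage of protein-coding genes at or below each log2 ratio of shallow over deep barcodes, by the number and place of hydrophobic stretches in the protein, in the control library (left) and the CX-5461 library (right), with the number of genes of each class. In both libraries the curves of genes with stretches lie to the right of the grey curve of genes without, with medians of 0.47 and 0.53 against -0.10 and 0.08 for 2 or more stretches and none.

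Length and base composition went with the ratio too. Among genes without a stretch, split into 5 classes of like size, those with the shortest proteins (44 to 172 residues) had a median log2 ratio of -0.31 and those with the longest (588 to 5656 residues) 0.31. Over all coding genes the median rose from -0.22 in the class of shortest transcripts (345 to 1170 bases) to 0.26 in that of the longest. With rising GC content of the transcript it fell from 0.22 in the lowest class (34.6 to 44.6% GC) to -0.26 in the highest (55.4 to 70.0% GC). The lysine content of the protein showed no such order, with medians between -0.15 and 0.05 in its 5 classes. These features are related to each other and are given as descriptions.

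A further set of genes had counts that hardly varied. For 137 of the 4084 genes the variance of counts over deep barcodes was under 0.8 times the mean, less than random sampling gives, and 104 of them were pseudogenes. They held a median of 0.99 UMIs per deep and 0.37 per shallow barcode, and 112 of the 137 were higher and 0 lower. Of these, 128 matched an expressed coding gene at 90% identity or more over at least 50% of their longest transcript, 56 of them a cytosolic ribosomal protein, with a median identity of 99.5%. Rpl19-ps11, a processed pseudogene on chromosome 8, is the clearest case and is shown beside its parent, with the differing base in capitals.
Rpl19-ps11, transcript bases 161 to 220: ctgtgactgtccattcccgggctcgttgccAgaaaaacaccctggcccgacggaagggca
Rpl19, transcript bases 223 to 282: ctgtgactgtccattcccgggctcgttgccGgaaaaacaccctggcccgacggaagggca
Over 591 aligned bases the pair differed at 1 position. Rpl19-ps11 held exactly 1 UMI in 96.5% of shallow and 95.5% of deep barcodes, and so reached a ratio of 7.24 (6.74 to 7.77), while Rpl19 itself held 7.96 and 66.9 UMIs per barcode (ratio 0.932). Others were lower in shallow barcodes, such as Rpl19-ps1 with 0.394 UMIs per shallow and 0.992 per deep barcode. The cause of the near-constant counts was not tested.

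Among the non-mitochondrial genes compared, the 12 highest ratios all belonged to pseudogenes near-identical to an expressed gene, of near-constant counts except for Gm28437 and Gm10925. They were 7 processed pseudogenes, copies of Rpl19, Rps25, Rpl24, Rpl36, Rpl28, Rps23 and Cox7c, and 5 unprocessed pseudogenes on chromosome 1 that are copies of mitochondrial genes. Gm28437 is identical to mt-Co3 over 783 bases, both beginning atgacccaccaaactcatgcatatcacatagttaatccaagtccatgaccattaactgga, and it held 3.15 UMIs per shallow and 3.35 per deep barcode (7.37, 7.09 to 7.66). Gm10925, identical to mt-Atp6, lay at 7.34 (7.01 to 7.68). Reads of these genes cannot be told apart from those of the mitochondrial genome over the matching bases, so they are uncertain. Of 214 other pseudogenes compared, 75 were higher and 34 lower, with a median log2 ratio of 0.07. Gm11353, a processed pseudogene among the 6 largest gains in level, was at 4626 and 2160 UPM in control (2.14, 2.10 to 2.18) and at a ratio of 1.03 in the CX-5461 library.

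Along total depth the levels changed over several classes. From 1000 up to 20000 UMIs, the largest step of Sec62, histones and ER chaperones lay between the classes on either side of 5000 UMIs. Sec62 was at 906 UPM (828 to 988) in the 402 barcodes from 1000 up to 2000 UMIs, 849 in the 374 up to 3000, 632 in the 313 up to 5000, 270 in the 273 up to 10000 and 120 in the 1619 up to 20000. Over the same classes the histones were at 571, 836, 1359, 3068 and 4478 UPM, but the end classes broke this order, with 756 in the 24 barcodes under 1000 UMIs and 3286 in the 762 of 20000 or more. ER chaperones changed little within the members (5143, 4732 and 4784) and stood at 2898 and 2051 in the 2 classes from 5000 up to 20000 UMIs. Directly beside it, the 111 barcodes from 4000 up to 5000 UMIs and the 54 from 5000 to 5999 UMIs differed little, with ER chaperones at 4698 and 4602, Sec62 at 618 and 536, histones at 1434 and 1703, Malat1 at 10269 and 9090 and median mitochondrial shares of 8.56% and 6.67%. The 24 members under 1000 UMIs stood apart with a median mitochondrial share of 4.95% and Malat1 at 28147 UPM.

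**Figure D5:**
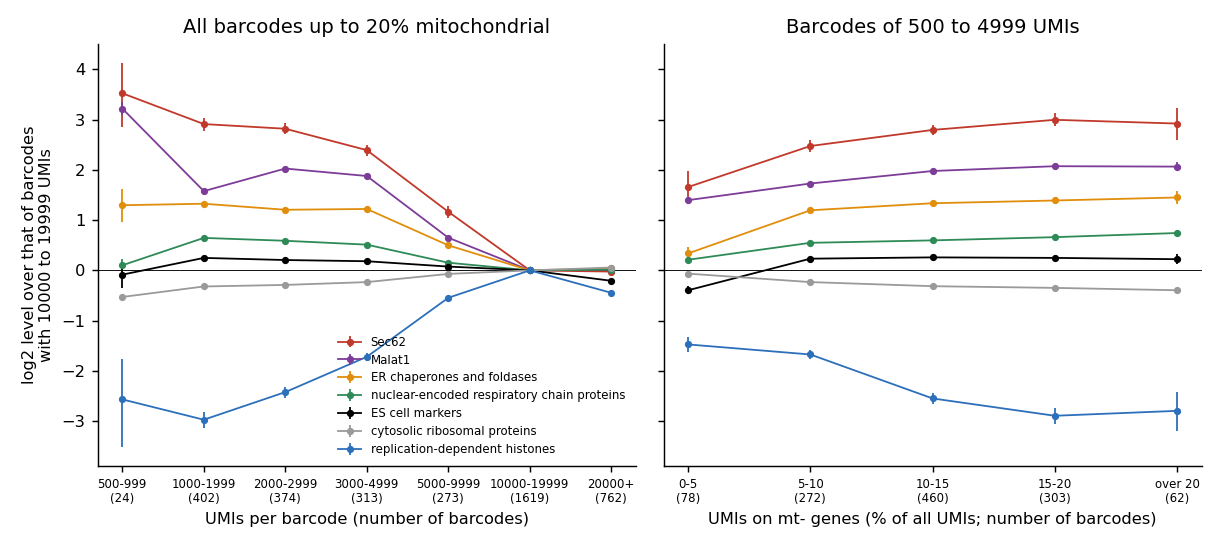
Pooled level relative to that of control barcodes from 10000 up to 20000 UMIs, on a log2 scale, for 2 genes and 5 gene lists by total UMIs (left) and, among barcodes from 500 up to 5000 UMIs, by mitochondrial share (right); bars are 95% Poisson intervals and numbers in parentheses are barcodes. Sec62, Malat1 and the ER chaperones are lower and the histones higher in the barcodes of 5000 or more UMIs than in the shallower ones, and in the left panel the histones drop again from 20000 UMIs and Malat1 is uneven below 5000.

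Members differed among themselves with mitochondrial share. In the 78 members with up to 5% the ER chaperones stood at 2592 UPM and ribosomal proteins at 279279 (1959 and 297489 in deep barcodes outside the feeder-like set), and 17 of these 78 were feeder-like. Malat1 stood at 7955, Sec62 at 380 and histones at 1612 in these 78, against 2695, 121 and 4147 in those deep barcodes. These 2 sets are not alike, since the 17 feeder-like barcodes were kept in the 78. Feeder-like deep barcodes stood at 7309, 174 and 1247. In the 272 members between 5 and 10% the ER chaperones and ribosomal proteins stood at 4697 and 248607. They were at 5178 and 234907 in the 460 between 10 and 15%, and at 5377 and 229477 in the 303 between 15 and 20%. The 62 barcodes beyond the limit continued the order, at 5606 and 222128. Restricting the members to the 350 with at most 10%, as in the deep set, left 706 genes higher and 585 lower of 3988, and the median of the ER chaperones was 0.80, of the ribosomal proteins -0.25 and of the histones -1.57.

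The shift was present in most single barcodes. Ribosomal proteins took a median of 23.7% of the non-mitochondrial UMIs of a member (10th to 90th percentile 19.8 to 27.7%) and 29.3% of a deep barcode, and 3.95% of members exceeded the deep median. Respiratory chain proteins took 4.77% of a member and 3.19% of a deep barcode, with 95.5% of members over the deep median, and Malat1 0.874% and 0.252%, with 89.7% over it. When every barcode was thinned to 1000 non-mitochondrial UMIs, which left out 43 members and no deep barcode, members held a median of 621 genes (quartiles 602 and 641) and deep barcodes 575 (556 and 594). Without thinning the medians were 1003 and 3309.5.

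In the CX-5461 library the same rule gave 196 shallow of 4922 barcodes (3.98%, 3.45 to 4.57%) against 4174 deep ones. A further 327 barcodes with 5000 or more UMIs had 0.1 to 0.2 mitochondrial, against 8 in control. The shallow barcodes of this library had a median of 4165 UMIs and 15.7% mitochondrial, so that they were deeper and more mitochondrial than those of control, and the values are set side by side without a test. They kept 89.9% of the mitochondrial and 22.7% of the other UMIs per barcode. Of 5661 genes compared, 22.7% were higher and 11.0% lower (1287 and 622), with a median log2 ratio of 0.14. The balance turned with members up to 0.1 mitochondrial, as in the deep set, where 751 were higher and 1259 lower. Among 4001 genes compared in both libraries, 484 were higher in both, which is 59.5% of the 813 in control and 58.7% of the 824 in CX-5461, where 20.6% of these genes were higher. For the lower genes 229 were shared, 32.8% of the 698 in control and 54.5% of the 420 in CX-5461, where 10.5% were lower. Over 3843 genes of free variation the log2 ratios of both libraries had a Spearman correlation of 0.65, given as a description across genes, which are not independent.

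Taken over all shallow barcodes, the groups kept in control were mostly those kept in CX-5461. Hspa5 had a ratio of 5.16 (4.71 to 5.65) there, Cd9 4.42 (4.10 to 4.77), Ctsl 4.26 (3.86 to 4.68), Sec62 3.27 (2.85 to 3.72) and Malat1 2.44 (2.38 to 2.5). ER chaperones had 14 higher and 0 lower of 17 (median log2 ratio 1.22), membrane receptors 14 and 0 of 20 (0.84), ribosomal proteins 3 and 22 of 79 (-0.42) and histones 0 and 13 of 14 (-1.72). The genes without a hydrophobic stretch had a median of 0.08 and those with 2 or more 0.53. Other values differed. Ktn1 was at 1.81 (1.28 to 2.49) on 38 UMIs, Son at 1.76 (1.51 to 2.04), and Pdcd11 at 0.962 (0.549 to 1.57) on 16 UMIs, where control had 4.70, 4.01 and 3.89. Coiled-coil and motor proteins had 5 higher of 18 (0.45), cytoskeleton genes 0 higher and 3 lower of 22 (-0.01) and respiratory chain proteins 14 higher and 6 lower of 79 (0.10). The reference for these list counts is the 22.7% higher and 11.0% lower over all genes compared in CX-5461. Eef1a1, lower in control, was at 1.12 (1.08 to 1.15). The pattern was weaker at low mitochondrial share. In the 30 members up to 0.05, 1 of them feeder-like, and the 8 from 0.05 to 0.1, ER chaperones stood at 2977 and 2843 UPM. Deep barcodes outside the feeder-like set stood at 2665. Sec62, on few UMIs, was at 111 and 124 against 103, and ribosomal proteins at 238297 and 246848 against 250698. Histones were at 1378 and 1978 against 1478. Malat1 was still higher, at 6166 and 6644 against 3802, as were membrane receptors, at 3591 and 3152 against 2556.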

How the data were processed

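The data were 10x 3′ (version 2 chemistry) count tables, 1 for control and 1 for CX-5461, deposited by the authors as whole UMI counts per Ensembl gene and barcode, with a further column of counts shared between genes. The submitters' notes name mm10 and Seurat 2.3.4; per the study's methods, a published droplet pipeline made the gene tables, its Bowtie aligner being replaced by HISAT2 for repeats. The annotation is not given in the sources used here. The authors' text filters cells under 500 UMIs or over 0.2 mitochondrial, but the tables still hold such barcodes. Of 54146 gene IDs, 54079 matched GENCODE vM21 (GRCm38), which supplied symbols, transcripts and coding sequences. No column of values was left unmapped (0).

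UMIs were summed over barcodes of each set and divided by non-mitochondrial UMIs. Ratios carry exact conditional binomial intervals, levels exact Poisson and shares exact Clopper-Pearson ones. With 1 library per condition these cover counting error only. Genes were named by a rule: the 3 markers, the 12 highest and 12 lowest ratios, the 6 largest gains and losses in level, and up to 4 genes of each of 26 lists. Members, lists and comparisons were chosen with earlier results of these data known. Atp6ap2, Ctsl, Slc7a3, Apoe, Son, Pdcd11, Top1 and other genes outside the rule were chosen after their values were seen, as were the alternatives without near-constant genes. No doublet caller was run on sets chosen by depth. Copies were matched with blastn, and scripts were tested on simulated data. Python 3.11.15, numpy 2.4.6, pandas 2.3.3 and scipy 1.17.1 were used, and edgeR 4.0.16 in R 4.3.3 for the trimmed mean factor, on sums of the deposited counts.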

Additional observations from a re-analysis of the deposited data

Results flagged for a closer look

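Neat1 differed in direction between the libraries. Its log2 ratio of shallow over deep barcodes was -1.05 in control and 0.80 in CX-5461, past 1.5-fold in opposite directions, and the difference was not tested, since each condition is 1 library. Barcodes rich in fibroblast markers held 72.3% of the deep Neat1 UMIs in control, and without them the control log2 ratio was 0.59.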

How the results depend on the processing

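No paired analysis was possible because the barcodes of each table carry no sample of origin, and for the same reason no replicate could be left out. Of 220 values for gene lists under alternatives, 169 moved by less than the counting error, 48 by more and 3 reversed, and of 1183 values for named genes these numbers were 737, 441 and 5. The number of higher and lower genes in control followed the minimum, with 1972 and 1695 at 200 UMIs, 222 and 255 at 5000 UMIs and 5684 and 2995 with no minimum beyond 1 UMI in each set. With a fold of 2 it was 408 and 206. With the trimmed mean factor of edgeR 1144 genes were lower, and the medians of ER chaperones, ribosomal proteins, histones and DNA replication genes were 0.75, -0.58, -2.37 and -0.012, the last of these reversed. With all UMIs as the scale the median of ribosomal proteins was -0.50. With members up to 0.1 mitochondrial, 350 in number, the medians of ER chaperones, ribosomal proteins and histones were 0.80, -0.25 and -1.57, and S100a6 reversed to 0.21. The histone median was -2.46 for the mean over barcodes, -3.2 for members from 500 up to 2000 UMIs and -1.95 for those from 2000 up to 5000 UMIs, and among the former the G2/M median reversed to -0.10. Without feeder-like barcodes the ER chaperone median was 1.26, and the fibroblast median (0.32), Gadd45g (0.54), S100a6 (0.085), Neat1 (0.59) and Ier3 (0.75) reversed. At a hydropathy of 2.0 the median for 2 or more stretches was 0.77. In CX-5461, 2861 genes were higher and 1750 lower at 200 UMIs, 116 and 131 at 10000 UMIs (chosen after seeing the data), and 751 and 1259 with members up to 0.1 mitochondrial. The causes were not tested. Leaving out genes of near-constant counts, also chosen after seeing the data, gave 738 higher and 716 lower of 3947 in control, and protein-coding genes alone 646 and 671 of 3677.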
